A study of Capra hircus with 4 samples.

Results

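The giant proteins of the sarcomere and the proteins that bind them were examined in goat skeletal muscle by RNA-seq: nebulin (NEB), titin (TTN), nebulin-related anchoring protein (NRAP), the myomesins MYOM1, MYOM2 and MYOM3, and the myosin-binding proteins C MYBPC1 and MYBPC2. The genes were found by name in the table that pairs assembled sequences, called unigenes, with goat genes. Of the 8 names, 7 were in that table with 15 unigenes, out of 11208 goat gene names with 21195 unigenes and 59774 unigenes in all. The symbol TTN was not in the table, but its entry LOC102173234, described as titin-like, carries the gene ID 102173234, which RefSeq gives the symbol TTN. Its 19 unigenes are reported here as titin, beside the 7 genes found by name and outside their counts. All 4 libraries came from the longissimus dorsi muscle of Cashmere goats aged 2 months. The control library came from goats without the drug, and treated libraries 1, 2 and 3, called T1, T2 and T3 below, from goats given ractopamine, a beta-adrenergic agonist that promotes muscle growth, by mouth at 1 mg/kg each morning in a course of 28 days of dosing followed by 21 days of withdrawal. The study describes RNA-seq of treated goats on day 21 of dosing and on days 3 and 21 of withdrawal. The labels tie no library to a time and do not say whether RNA of several goats was pooled. The treated libraries are therefore named by number and may differ in time on or off the drug. There was 1 control library, and every comparison with control shares it. The labels do not say that the treated libraries are separate animals, so p-values measure only the spread between these libraries.

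A sarcomere is the contractile unit of striated muscle, with actin thin filaments anchored at its ends in the Z-discs and myosin thick filaments held together in its middle at the M-band. Nebulin lies along the thin filament of skeletal muscle and is built of repeated modules that each contact actin, while titin spans from Z-disc to M-band as an elastic filament and carries a kinase domain near its M-band end. NRAP shares the nebulin repeat and takes part in the assembly of myofibrils. Myomesins cross-link thick filaments and titin in the M-band, and myosin-binding proteins C form stripes on the thick filament, with MYBPC1 known as the slow and MYBPC2 as the fast skeletal form. MYOM2 is known from fast fibres and MYOM3 from slow and intermediate ones.

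The depth behind these genes differed between libraries. The expected counts summed to between 6675218 and 8533046 per library, of which goat genes took 71.3% in the control library, 50.1% in T1, 40.4% in T3 and only 1.82% in T2. Unigenes with a mitochondrial best match took 22.2%, 37.5%, 49.7% and 84.3% of the counts of the same libraries. T2 therefore held 133809 counts of goat genes, and 1 of its counts was worth 6.31 CPM (counts per 1000000 scaled counts), against 0.145 to 0.436 in the others. Levels below are CPM, scaled by trimmed mean of M-values (TMM) over goat genes, and an x-fold is a treated over the control CPM with 0.5 CPM added to each. Scaled instead to all counts of a library, mitochondrial ones included, the median x-fold of the 6739 genes tested shifted from 1.04 to 0.578 in T1, from 0.717 to 0.0484 in T2 and from 1.005 to 0.449 in T3, so changes here are relative to other goat genes. Less RNA per cell and fewer muscle fibres cannot be told apart in bulk muscle. The muscle markers, of which 7 of 8 were in the table, summed to 82951 to 171452 CPM per library. The entry named ACTA1, with only 130 counts in the control library, was at 0 in T2, but the reads given to it are uncertain, as described below. The 2 of 7 cardiac markers in the table, TNNT2 and NEBL, summed to between 0 and 5 counts. Markers of smooth muscle without desmin, which muscle fibres also express, ranged from 43.2 to 100.9 CPM, and those of adipocytes (3 of 5 in the table) from 13.0 CPM in the control library to 725 CPM in T2, with 127 and 33.6 CPM in T1 and T3. Fibroblast markers (4 of 5) ranged from 100.2 to 1873 CPM and endothelial markers (4 of 4) from 202 to 624 CPM, both highest in T2. In all libraries, leukocyte markers (3 of 4) stayed at 19 counts or fewer, nerve markers reached 114 CPM, and none of 3 B and plasma cell markers was in the table. MYF5, 1 of 2 satellite cell markers, had 104 counts in the control library, 26 in T1, 0 in T2 and 35 in T3. The part of these differences in the results below was not tested.

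The repeats that define nebulin and NRAP could be read in the assembled sequences. In the proteins that the authors predicted from the unigenes, the actin-binding motif of the nebulin repeat was searched as serine, aspartate, any 2 residues, tyrosine and then lysine or arginine. It was found in 62 of 21195 predicted proteins (0.293%), and 3 times or more in 5 of them, of which 4 were NEB unigenes and 1 was NRAP. The longest NEB unigene, c13512_g5 with 17133 bases, held 61 copies and NRAP unigene c13198_g1 with 5684 bases held 14. To show the repeat, 300 coding bases of each unigene are given 5′ to 3′ with the codons of the motif in capitals. They begin at base 451 of the predicted coding sequence for NEB and at base 4471 for NRAP. Each stretch holds 3 motifs.
NEB: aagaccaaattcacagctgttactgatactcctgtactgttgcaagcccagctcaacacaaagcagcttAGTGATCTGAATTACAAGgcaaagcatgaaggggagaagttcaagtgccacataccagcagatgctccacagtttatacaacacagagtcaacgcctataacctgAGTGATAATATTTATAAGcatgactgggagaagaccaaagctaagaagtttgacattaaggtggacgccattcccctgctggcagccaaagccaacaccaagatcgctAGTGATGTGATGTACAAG
NRAP: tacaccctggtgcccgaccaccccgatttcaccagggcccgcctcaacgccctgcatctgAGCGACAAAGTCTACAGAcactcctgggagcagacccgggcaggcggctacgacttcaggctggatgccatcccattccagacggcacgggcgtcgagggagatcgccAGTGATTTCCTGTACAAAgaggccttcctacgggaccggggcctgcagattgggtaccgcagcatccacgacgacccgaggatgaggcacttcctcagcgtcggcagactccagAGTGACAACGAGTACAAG

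The unigenes that hold the ends of nebulin and titin were identified from the stop codon, because the place of the reads along these very long transcripts is used below. The last 120 bases of coding sequence with the stop codon in capitals are shown for NEB unigene c13512_g5, which goes on for 1232 bases after it and holds the SH3 domain at the end of nebulin, and for titin unigene c13782_g6, which goes on for 1041 bases and holds the titin kinase domain.
NEB: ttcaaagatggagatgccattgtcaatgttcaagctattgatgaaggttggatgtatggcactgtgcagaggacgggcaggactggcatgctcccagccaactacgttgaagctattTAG
titin: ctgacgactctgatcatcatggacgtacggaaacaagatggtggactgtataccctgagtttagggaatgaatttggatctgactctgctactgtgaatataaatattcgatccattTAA

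Nebulin had fewer counts in every treated library than in the control library. NEB had 44656 expected counts in the control library, 9970 in T1, 66 in T2 and 6097 in T3. After scaling these were 6458, 2860.0, 416 and 2658 CPM, so the control library was the highest and T2 the lowest. The x-fold was 0.443 in T1 (95% Clopper-Pearson interval of the count ratio 0.433 to 0.453), 0.0645 in T2 (0.0498 to 0.0820) and 0.412 in T3 (0.401 to 0.423). These intervals cover counting error only and compare libraries, not conditions. NEB was among the genes the study chose from its RNA-seq comparisons, so it was not picked independently of these data. The study's limits were 3 for a higher and 0.6 for a lower gene, and it did not choose NEB as a lower one. The study set each time against a corresponding control, while the x-folds here all use the same control library. NRAP, with the same repeat, had 44823, 15205, 82 and 3897 counts in the same order of libraries. Its x-folds were 0.673 (0.661 to 0.685), 0.0799 (0.0634 to 0.0991) and 0.262 (0.254 to 0.271). NRAP was thus also highest in the control library, with T1 just above the limit of 0.6 that the study used for a lower gene.

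Titin did not follow nebulin. It had 106509 counts in the control library, 96107 in T1, 1241 in T2 and 34048 in T3, or 15403, 27569.6, 7827 and 14841 CPM. T1 was the highest for titin, the control library and T3 lay close together and T2 was the lowest. The x-folds were 1.79 (1.77 to 1.81), 0.508 (0.480 to 0.537) and 0.963 (0.952 to 0.975).

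The M-band genes split between MYOM2 and the other myomesins. MYOM1, expressed in all striated muscle, had 14118 counts in the control library, 2712 in T1, 41 in T2 and 2406 in T3, with x-folds of 0.381, 0.127 and 0.514. MYOM3 had 6007, 1151, 1 and 170 counts in the same order. Its x-folds were 0.380 (0.357 to 0.405) in T1 and 0.0858 (0.0728 to 0.0994) in T3, and the 1 count in T2 gave a count ratio with an interval of 0.000184 to 0.0405. MYOM3 had the lowest x-fold of the 8 genes in T2 and T3 and was level with MYOM1 in T1, and in T3 0.134% of the 6739 genes tested lay lower. MYOM2 had 9138 counts in the control library, 4664 in T1, 47 in T2 and 4432 in T3. In CPM these were 1322, 1338, 296 and 1932, and the control library was not the highest. Its x-folds were 1.01 (0.977 to 1.05), 0.225 (0.165 to 0.299) and 1.46 (1.41 to 1.52). These are mostly the values of 1 unigene. The short MYOM2 unigene c403_g1 had 260, 5, 0 and 31 counts, with x-folds of 0.0508, 0.0131 and 0.368.

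The myosin-binding proteins C differed in the same way. MYBPC1 had 32190 counts in the control library, 8025 in T1, 67 in T2 and 4798 in T3. The x-folds were 0.495 (0.483 to 0.507), 0.0909 (0.0703 to 0.115) and 0.449 (0.436 to 0.463), with the control library highest. MYBPC2 had 53905, 16730, 280 and 20635 counts in the same order. Its x-folds were 0.616 (0.605 to 0.626), 0.227 (0.201 to 0.255) and 1.15 (1.14 to 1.17), so the fast form was highest in T3 and the control library lay between T1 and T3.

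Levels were compared between genes as CPM per kb of assembled length, with bases that 2 unigenes of a gene share counted a single time. In the control library MYBPC2 was highest with 2102 CPM per kb, followed by MYBPC1 with 1166 and NRAP with 1140. Then came MYOM1 with 337, NEB with 298, MYOM2 with 258, titin with 175 and MYOM3 with 128. These values average over unigenes that were covered unevenly. In the control library titin unigene c13782_g6 alone had 700 CPM per kb and c13782_g7 had 37.5, while NEB unigene c13512_g5 had 346. The ranks of titin and NEB therefore depend on which unigenes are counted. MYBPC2 was the highest and MYOM3 the lowest of the 8 genes in all 4 libraries. NEB ranked 5 of the 8 genes in the control library, 6 in T1 with 132 CPM per kb, and 7 in T2 and T3 with 19.2 and 123 CPM per kb. With 1 control library there is no spread between controls to set beside the differences in this order. The 7 genes without titin took 3.37% of the goat gene counts in the control library, 1.46% in T1, 0.436% in T2 and 1.57% in T3.

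**Figure D1:**
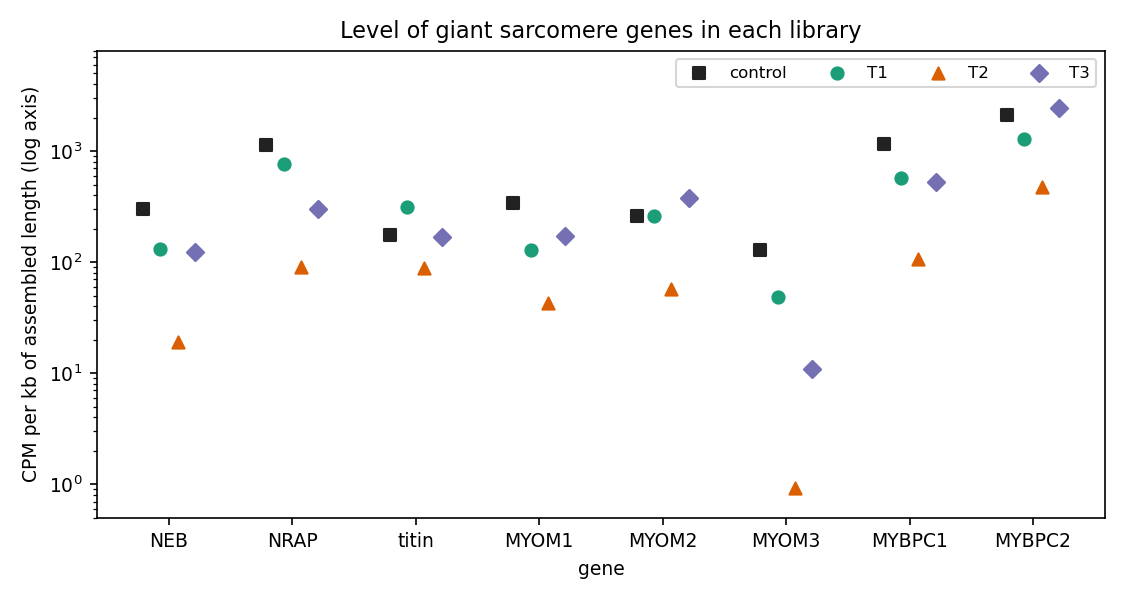
Level of each gene in CPM per kb of assembled length on a log axis, with 1 point for each of the 4 libraries. The control library (squares) is highest for NEB, NRAP, MYOM1, MYOM3 and MYBPC1, and MYOM3 falls to 0.933 CPM per kb in T2, which is 1 count.

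Of the 7 genes found by name, 4 lay below an x-fold of 0.6 in T1 (NEB, MYOM1, MYOM3 and MYBPC1), 7 in T2 and 5 in T3, where NRAP joined the same 4. Of all 6739 genes with a mean of at least 5 CPM, 20.3% lay below 0.6 in T1, 43.3% in T2 and 18.0% in T3. The share in T2 includes genes with 0 counts there, where 1 count was worth 6.31 CPM. None of the 7 genes or titin lay above 3, where 7.73%, 11.7% and 4.36% of all genes lay. NEB, MYOM1, MYOM3 and MYBPC1 were below 0.6 in all 3 treated libraries, as were 8.22% of all genes. Without T2 the count was 4 as well. The median x-fold of the 7 genes was 0.495, 0.0909 and 0.449 in T1, T2 and T3, where the medians of all genes tested were 1.04, 0.717 and 1.005. Among the 401 genes with a longest unigene of 5000 bases or more, to which NEB, NRAP, MYOM1, MYOM3 and titin belong, 32.4%, 69.8% and 42.1% were below 0.6, and 21.4% were below it in all 3 libraries.

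**Figure D2:**
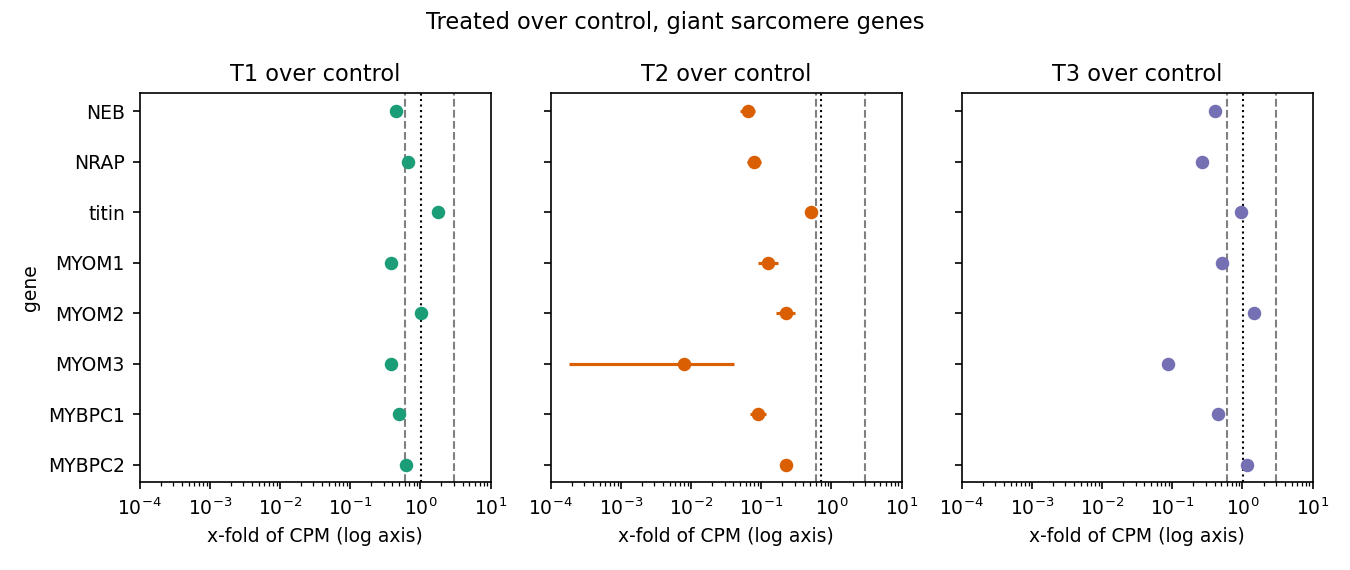
X-fold of the CPM of each gene in each treated library over the control library on a log axis, with 95% Clopper-Pearson intervals of the count ratio as bars. Dashed lines mark 0.6 and 3 and the dotted line is the median of the 6739 genes tested, 1.04, 0.717 and 1.005. NEB, MYOM1, MYOM3 and MYBPC1 lie left of 0.6 in every panel.

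The 3 treated libraries were then set against the control library in a test across all genes, in which the lone control is assumed to vary like the treated libraries. With edgeR's quasi-likelihood test and Benjamini-Hochberg adjustment, 0.0% of the 6739 genes passed an adjusted p of 0.05, while 238 higher and 280 lower genes had an unadjusted p below it. DESeq2 called 3 genes higher and 1 lower on the same counts. None of the 7 genes passed, and 0 of them by edgeR and 1 by DESeq2 had an unadjusted p below 0.05. The estimated log2 difference of treated minus control was -2.61 for MYOM3 (adjusted p = 0.696 by edgeR), -1.70 for NEB (0.747), -1.56 for NRAP (0.789), -1.55 for MYOM1 (0.740) and -1.53 for MYBPC1 (0.779). It was -0.59 for MYBPC2, -0.15 for MYOM2 and 0.12 for titin, with adjusted p from 0.930 to 0.990 by edgeR. Over the 9 alternatives to this fit the smallest adjusted p of any of the 7 genes was 0.0958, with no minimum level, and the called count stayed at 0. Each of these tests rests on 1 control library, and a p that misses the threshold does not show that the levels were alike.

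Ratios of genes within a library do not depend on the scaling between libraries. They can still depend on gene length and on the place of the reads along transcripts, with which x-folds also moved, as given below. That part was not tested. The ratio of MYBPC1 to MYBPC2 counts was 0.597 in the control library (95% interval 0.589 to 0.605), 0.480 in T1 (0.467 to 0.493), 0.239 in T2 (0.180 to 0.313) and 0.233 in T3 (0.225 to 0.240). The slow form was thus lower against the fast form in each treated library, by 1.24, 2.50 and 2.57 times. The ratio of MYOM3 to MYOM2 was 0.657 (0.636 to 0.679) in the control library and 0.247 (0.231 to 0.263), 0.0213 (0.000528 to 0.124) and 0.0384 (0.0327 to 0.0447) in T1, T2 and T3. That ratio was 2.66 times lower in T1 and 17.1 times lower in T3. For the troponins T, of which TNNT1 is the slow and TNNT3 the fast form, the ratio was 0.597, 0.247, 0.236 and 0.170 in the same order. The x-folds in T1, T2 and T3 were 1.45, 0.759 and 1.19 for TNNT1 and 3.50, 1.92 and 4.19 for TNNT3. In T1 and T3 the lower ratio thus came with a higher fast form, while the slow form was not lower.

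NEB kept no fixed ratio to its relatives. NEB and NRAP had nearly equal counts in the control library, with a ratio of 0.996 (0.983 to 1.01). It was 0.656 (0.639 to 0.673) in T1, 0.805 (0.573 to 1.13) in T2 and 1.56 (1.503 to 1.63) in T3. NEB was therefore lower against NRAP in T1 and higher in T3, while the interval of T2 includes the control ratio. The ratio of NEB to titin was 0.419 (0.415 to 0.424) in the control library, 0.104 (0.102 to 0.106) in T1, 0.0532 (0.0409 to 0.0681) in T2 and 0.179 (0.174 to 0.184) in T3. It was lower in all 3 treated libraries, by 4.04, 7.88 and 2.34 times. The part of length and of the place of the reads in these ratios was not tested either.

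**Figure D3:**
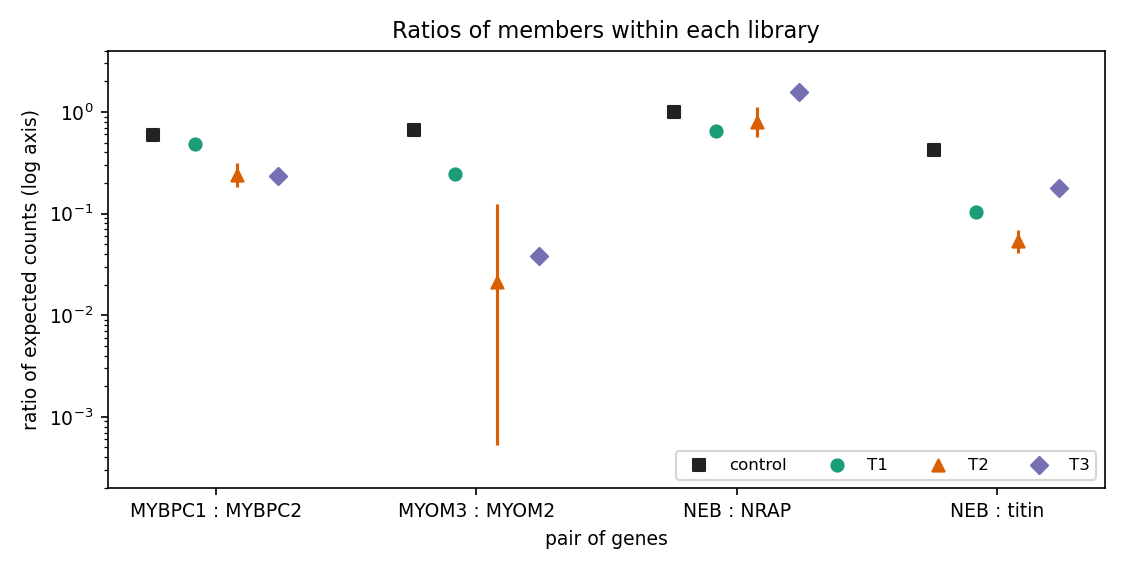
Ratio of expected counts of 2 genes in the same library on a log axis, with 95% Clopper-Pearson intervals, which cover counting error only. The control library (squares) is highest for MYBPC1 to MYBPC2, MYOM3 to MYOM2 and NEB to titin, and lies between T1 and T3 for NEB to NRAP.

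T1 and T3 were the deeper ones and did not match each other. NEB and MYBPC1 differed little, with CPM in T3 of 0.929 (0.8999 to 0.959) and 0.908 (0.876 to 0.942) times that in T1. NRAP was 0.389 (0.376 to 0.403) times and MYOM3 0.224 (0.190 to 0.264) times as high in T3. MYOM1, MYOM2 and MYBPC2 were higher there, at 1.35, 1.44 and 1.87 times, and titin was lower at 0.538 times.

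Nebulin was assembled in 6 unigenes and all 6 were below 0.6 in each treated library. Of the 15 unigenes of the 7 genes, 11, 14 and 12 were below 0.6 in T1, T2 and T3. Of the 13 that passed a mean of 5 CPM these were 10, 13 and 11, where 20.2%, 43.3% and 17.8% of all 6894 unigenes that passed lay below it. The unigene with the coding end, c13512_g5, had 40975, 9733, 57 and 5966 counts in the control library and T1, T2 and T3, and x-folds of 0.471, 0.06075 and 0.439. The shorter unigenes all had lower x-folds than it in T1 and T3. Unigene c13512_g2 had 1814, 35, 1 and 27 counts and c13512_g4 had 313, 6, 1 and 11, with x-folds in T1 and T3 of 0.0401 and 0.0467 for c13512_g2 and 0.0485 and 0.116 for c13512_g4. Unigene c13512_g3, of 2032 bases, had 766, 56, 6 and 36 counts. Its last 220 bases are identical to the start of c13512_g5, which would place it upstream. A longer stretch that includes them also aligned to bases 238 to 961 of c13512_g5 at 87.4% identity, so among these repeats its place is not certain.

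The unigenes c13512_g2 and c13512_g4 are both 685 bases long and aligned to each other at 79.7% identity. They are shown because they had the lowest x-folds in T1 and T3 of the NEB unigenes above 5 CPM, and because their shared start means that the counting could split reads between them. Given are the first 240 bases of the coding sequence predicted in each, 5′ to 3′, with the 31 bases that differ in capitals, so that 87.1% of this stretch is identical.
c13512_g2: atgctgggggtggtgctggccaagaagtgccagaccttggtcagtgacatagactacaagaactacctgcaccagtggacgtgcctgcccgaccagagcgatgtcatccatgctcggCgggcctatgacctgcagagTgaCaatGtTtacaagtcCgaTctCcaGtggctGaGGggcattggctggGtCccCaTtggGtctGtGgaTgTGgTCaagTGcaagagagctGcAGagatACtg
c13512_g4: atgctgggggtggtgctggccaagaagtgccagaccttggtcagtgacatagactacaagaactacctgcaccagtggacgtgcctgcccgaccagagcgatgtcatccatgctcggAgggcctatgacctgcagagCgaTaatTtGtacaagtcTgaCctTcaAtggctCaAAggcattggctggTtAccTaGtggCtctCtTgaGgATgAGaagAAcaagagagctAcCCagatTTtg
The differing bases begin only after a long identical start. The counts of c13512_g2 were above those of c13512_g4 in the control library and in T1 and T3.

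Titin unigenes moved in different directions. Of 19, 13 passed a mean of 5 CPM, of which 4, 5 and 5 were below 0.6 and 0, 3 and 1 above 3 in T1, T2 and T3. Of all 6894 unigenes that passed, 20.2%, 43.3% and 17.8% lay below 0.6. Unigene c11413_g1, 1 of the 3 above 3 in T2, had 4 counts there and reached the minimum only through T2. The unigene with the kinase domain, c13782_g6, had 98447, 94289, 925 and 32924 counts and x-folds of 1.90, 0.410 and 1.01. Another long one, c13782_g7 with 13545 bases and immunoglobulin-like domains, had 3515 counts in the control library against 146, 7 and 110 in T1, T2 and T3. Its x-folds were 0.0833, 0.08775 and 0.0952, so this stretch fell in every treated library while the kinase end did not fall in T1 and T3. Unigene c13793_g2, of 1865 bases, had 94, 144, 69 and 134 counts and was the highest titin unigene by x-fold in T2, at 30.9. The titin value above is therefore mostly that of 1 unigene.

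**Figure D4:**
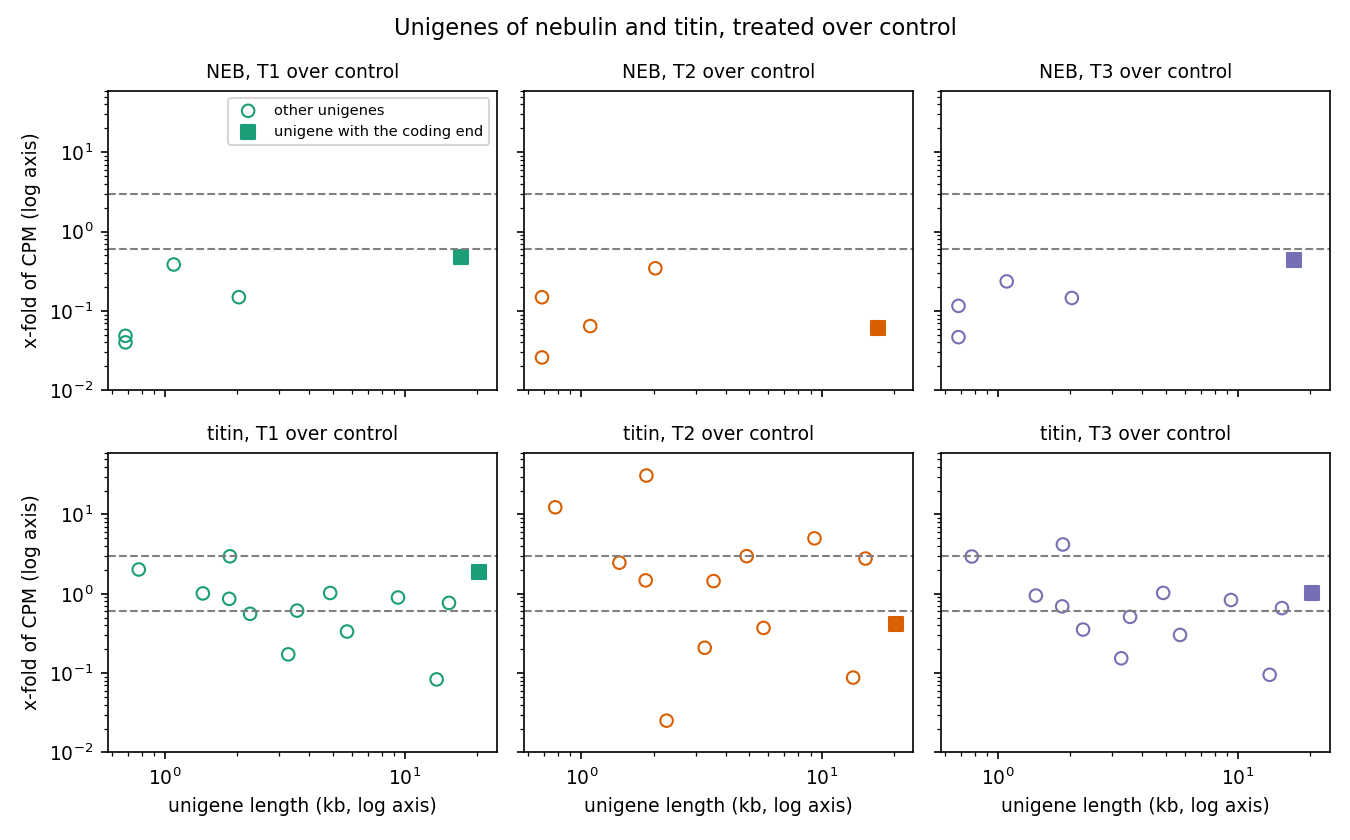
X-fold of each unigene of NEB (top) and titin (bottom) that passed a mean of 5 CPM, against its length, both on log axes, for each treated library over the control library. Filled squares are the unigenes with the coding end and open circles the others, and dashed lines mark 0.6 and 3. All NEB unigenes shown lie below 0.6, while titin unigenes lie on both sides, from 0.0833 to 2.97 in T1.

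The share of counts at the coding end was followed because libraries can differ in how reads spread along long transcripts. Of NEB counts, 91.8% (95% Wilson interval 91.5 to 92.0) were in c13512_g5 in the control library, 97.6% (97.3 to 97.9) in T1, 86.4% (76.1 to 92.7) in T2 and 97.9% (97.5 to 98.2) in T3. For titin, unigenes that end in a stop codon held 92.4%, 98.1%, 74.5% and 96.7%, where 2 short ones with at most 6 counts stand beside c13782_g6. The share was thus higher in T1 and T3 for both genes. In T2 it was lower for titin, and for NEB the interval includes the control value. Of MYOM2 counts, 97.2% were in the unigene with its coding end in the control library and 99.9%, 95.7% and 99.3% in T1, T2 and T3. Across all 241 goat genes with at least 50 control counts both in a unigene with the coding end and in others, the x-fold at the end over that of the others had a median of 5.16, 2.33 and 2.81, and it was above 1 for 91.3%, 67.6% and 88.0% of the genes. For NEB it was 3.67, 0.565 and 4.06. In T1 NEB was below the median and in T3 above it. For titin it was 4.25, 0.240 and 2.40, and for MYOM2 20.5, 0.643 and 4.06. The part of this shift in the x-folds of NEB, titin and MYOM2 was not tested. The minimum of 50 counts applied to the control library only. In T2, where 1 count was worth 6.31 CPM, the values of single genes can rest on few counts or none.

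The x-fold also moved with length across all genes. Spearman's rho between the length of the longest unigene and the x-fold was -0.32, -0.33 and -0.44 over the 6739 genes tested, which are not independent and share the same libraries. Genes with a longest unigene under 1000 bases had median x-folds of 1.80, 1.54 and 1.80, and those of 5000 bases or more 0.752, 0.390 and 0.673. In T2, where 1 count was worth 6.31 CPM, the x-folds of genes of low level rest on few counts or none. NEB, with 0.443, 0.0645 and 0.412, lay below the median of the longest class in every treated library. NRAP, MYOM1 and MYOM3 did too, while titin, of the longest unigene of the 8 genes, lay above it in every library.

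**Figure D5:**
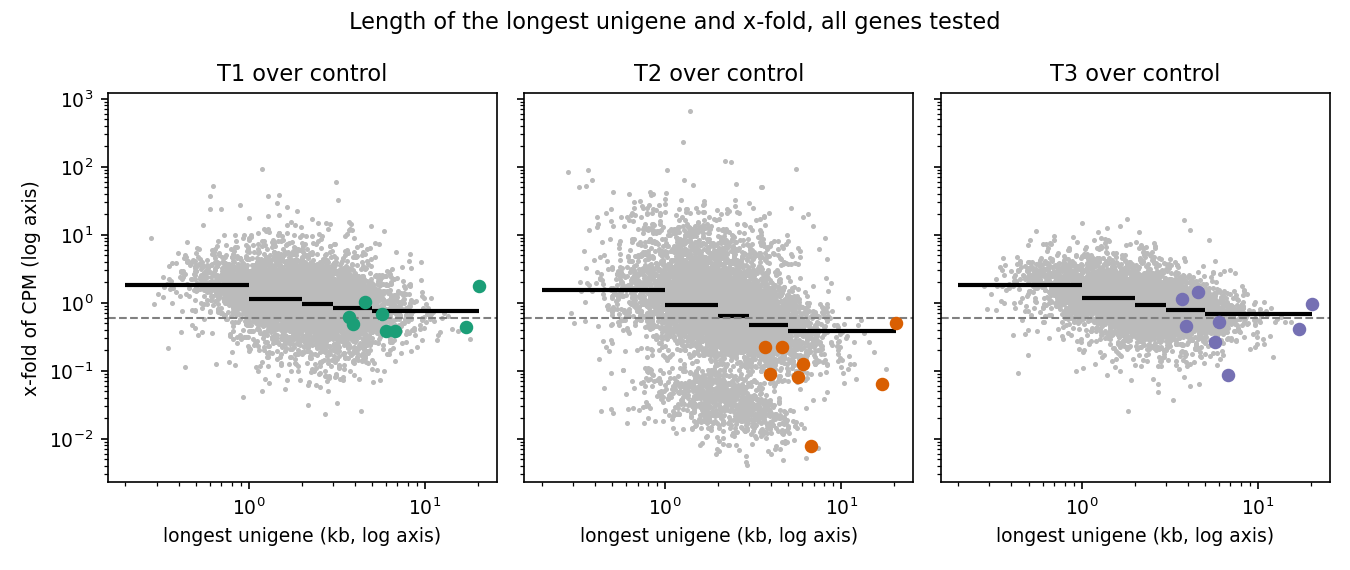
X-fold of each of 6739 goat genes (grey points) against the length of its longest unigene, both on log axes, for each treated library over the control library. Black bars are medians within length classes, which fall from 1.80 to 0.752 in T1, and coloured points are the 8 sarcomere genes, of which titin is farthest to the right.

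Transcripts of a unigene gave a finer view. The 2 transcripts of NEB c13512_g5 took 50.2% and 49.8% of its expression in the control library by the authors' IsoPct, and 50.3% and 49.7% in T1, 40.35% and 59.65% in T2 with 57 counts, and 50.35% and 49.65% in T3. Both are 17133 bases long and their sequences were not compared, so these shares do not show which transcript was used. The 2 titin transcripts of c13782_g6, of 20045 and 20348 bases, had x-folds of 1.96 and 1.85 in T1 and 1.03 and 0.986 in T3. MYBPC1 was assembled in unigenes c12792_g1 and c12792_g3, which share 3717 identical bases, so the counts of each are uncertain and their sum was used. In c12792_g3 a short transcript of 549 bases had 228, 465, 2 and 128 counts and an x-fold of 4.0 in T1, while the 2 long transcripts of the same unigene had 0.444 and 0.418. Of MYOM3, the transcript of 3702 bases had 1010, 49, 0 and 10 counts and that of 4117 bases 986, 366, 0 and 53. The first of these was thus lower than the second in T1 and T3, with x-folds of 0.0993 against 0.737 and 0.0332 against 0.165.

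Other genes of the sarcomere were counted in lists, to be read beside the shares of all genes given above. Of 14 thin filament genes in the table, 2, 9 and 4 were below 0.6 in T1, T2 and T3 and 3, 0 and 1 above 3, with medians of 1.36, 0.454 and 1.09. TNNT3 was highest with x-folds of 3.50, 1.92 and 4.19, and TNNC1, a troponin C whose main unigene matched at 71% identity only, had 3.03, 1.48 and 2.45. The lowest were LMOD2, a leiomodin that extends thin filaments, with 0.890, 0.130 and 0.324, and ACTA1 with 130, 6, 0 and 3 counts. Skeletal and smooth muscle actin are nearly identical, and a unigene named ACTA2 took most of 238187 control counts, so the reads given to ACTA1 are uncertain. Of 9 thick filament genes, 4, 7 and 3 were below 0.6 and 2, 0 and 1 above 3, with medians of 0.766, 0.288 and 0.843. MYL1, a fast myosin light chain, had 4.10, 1.49 and 4.56 and MYBPH, myosin-binding protein H, 3.05, 2.32 and 2.97, while MYL3, the slow light chain, had 0.0410, 0.258 and 0.0986. SMYD1, which aids myosin assembly, had 390, 41, 0 and 40 counts.

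Z-disc genes and partners of titin had their lowest medians in T2, as did the other lists and all genes tested. Of 17 Z-disc genes tested, 3, 16 and 10 were below 0.6 and 1, 0 and 1 above 3, with medians of 1.39, 0.214 and 0.478. CSRP3, the muscle LIM protein, had 0.739, 0.0538 and 0.110 and XIRP2, an actin-binding Xin protein, 0.373, 0.0745 and 0.162. TCAP, which caps titin at the Z-disc, had 1.84, 0.204 and 1.41 and PDLIM7 1.96, 0.899 and 3.59. Of 13 titin partner and M-band genes, 2, 12 and 5 were below 0.6 and 3, 0 and 0 above 3, with medians of 1.33, 0.252 and 0.657. The stretch-responsive ANKRD2 had 0.573, 0.0972 and 0.0863, and the titin-binding ubiquitin ligase TRIM63 had 9.67, 0.131 and 0.505. ANKRD23 had 1.58, 0.322 and 0.996, and OBSL1, whose main unigene matched at 66% identity only, 1.33, 0.676 and 1.29. Of 16 genes for giant proteins outside the sarcomere, 9, 13 and 9 were below 0.6, 8 of them in all 3 libraries, and 0, 1 and 0 above 3, with medians of 0.596, 0.295 and 0.557. MACF1, a cytoskeletal linker whose main unigene matched at 53% identity only, had 0.175, 0.0727 and 0.194. DMD, dystrophin, had 0.288, 0.267 and 0.321, while SYNE1, a nuclear envelope linker, had 1.86, 1.64 and 1.22 and LAMA2, a laminin chain, 1.26, 6.27 and 0.705. In T2 MACF1, DMD and SYNE1 had 3, 4 and 7 counts. GAPDH, a glycolytic enzyme, had 111313, 66565, 4205 and 84905 counts and x-folds of 1.19, 1.65 and 2.30.

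The genes most like NEB were sought among 3700 goat genes with a mean of at least 20 CPM by the Euclidean distance of their 3 log2 x-folds from those of NEB, where the median distance was 4.03. The nearest were KLF11, a transcription factor, at 0.252, the heart fatty acid-binding protein H-FABP at 0.303, the dystroglycan glycosyltransferase LARGE at 0.416, the GMP reductase GMPR at 0.459 and mitofusin MFN2 at 0.486. KLF11 had 687, 149, 1 and 110 counts and H-FABP 2394, 616, 4 and 306. Their values in T2 rest on between 1 and 10 counts each.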

How the data were processed

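RNA was extracted from goat longissimus dorsi muscle and libraries were made with the NEBNext Ultra RNA kit. The strand setting, the assembler, the counting tool and the genome build are not given in the sources used here. FastQC 0.10.1 is named in the submitters' processing notes. The authors deposited expected counts, TPM, FPKM and, for transcripts, the percent of a unigene's expression (IsoPct) for each library, and a table of goat gene names with the percent identity of the protein match. The deposited FPKM and TPM are scaled to all counts, mitochondrial ones included, and their values were not used. The expected counts were whole numbers and were summed per goat gene. The 25 matched unigenes with no gene name, all mitochondrial by best match, took 22.2 to 84.3% of the counts and were left out of gene totals.

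Counts were scaled by TMM with edgeR 4.0.16 (factors 0.850 to 1.18), with the control library as reference. The x-fold used a pseudocount of 0.5 CPM and the limits 3 and 0.6 of the study, and genes with a mean of at least 5 CPM were tested. A ratio of counts has its 95% Clopper-Pearson interval, which covers counting error only. The 3 treated libraries, which GEO labels as replicates, were compared with the 1 control library by edgeR's quasi-likelihood test (DESeq2 1.42.0 as an alternative). The edgeR test was also run on simulated data. These had less spread between libraries than the common dispersion of 0.240 found here, and larger planted changes than those of the 8 genes. That run therefore does not show how often changes like those here would be called. A unigene was taken to hold the coding end where a stop codon and a tail of at least 50 bases followed its coding sequence. Unigenes were to be placed along the goat protein by blastx, but no protein set was used here, so stop codons, domains and overlaps (blastn 2.17.0, at least 200 bases) took its place. Gene ID 102173234 was matched to TTN in RefSeq (ARS1.2). Genes named are the 8 members, the 2 highest and 2 lowest by median x-fold of each list, the 5 nearest to NEB and GAPDH. MYF5 is named as a cell type marker, and TNNT1 and ACTA2, outside this rule, were chosen after their values were seen. The members and lists were chosen with earlier results of these data known. Other software was R 4.3.3, Python 3.11.15, scipy 1.17.1, numpy 2.4.6, pandas 2.3.3 and matplotlib 3.10.9.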

Additional observations from a re-analysis of the deposited data

How the results depend on the processing

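Scaled to all counts of the library, all 7 genes lay below 0.6 in T1 in place of 4, and NRAP, MYOM2, MYBPC2 and titin fell below 0.6 in T1 or T3. MYBPC2 in T1, just above the limit, was also below it with DESeq2 scaling (0.586) and with each gene counted by its most abundant unigene (0.571). Scaled to goat gene totals without a TMM factor, MYBPC2 (0.473) and NRAP (0.517) both lay below it in T1, which made 6 genes there and 5 in all treated libraries. These and all other counts of genes and unigenes below 0.6, apart from the 7 in T1, stayed within 1.5 times under every alternative tried, which were DESeq2 scaling, goat gene totals without a factor, pseudocounts of 0.1 and 2 CPM, the most abundant unigene, unigenes of at least 90% identity, the transcript table, limits of 2 and 0.5 and other minimum levels. No x-fold of a gene below 0.6 moved above 1. The number of genes below 0.6 in all treated libraries ranged from 4 to 5 when 1 treated library was left out, and edgeR called 0 of the 7 each time. Of all genes, edgeR called 0, but 40 higher and 57 lower with no minimum level, 1 higher and 2 lower without T1 and 0 higher and 1 lower without T2, and DESeq2 called 3 higher and 1 lower. With the most abundant unigene alone, the MYBPC1 to MYBPC2 ratio was 0.353, 0.284, 0.136 and 0.139 in the control library and T1, T2 and T3, since MYBPC1 counts are shared by 2 unigenes, and the NEB to NRAP ratio was 0.914 in the control library. The main NEB unigene matched the goat protein at 82% identity, so unigenes of at least 90% identity left it out. Then the NEB to NRAP ratio was 0.0821, 0.0156, 0.110 and 0.0336, and the NEB to titin ratio 0.0346, 0.00247, 0.00725 and 0.00385, while the NEB x-folds were 0.130, 0.109 and 0.109. No paired analysis was possible because there was 1 control library for 3 treated ones. Depth limits T2, where a gene with 0 counts could be at up to 18.9 CPM.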
